A study of Arabidopsis thaliana with 9 samples.

Results

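AT5G37980, AT5G37990 and AT5G38020 are neighbouring genes on chromosome 5 of Arabidopsis thaliana whose probe sets differed in signal between the accessions WS and Col-0. Each of the 3 genes is read by its own probe set, as are 13356 genes in all by the annotation used, and 4 loci lie between AT5G37990 and AT5G38020. The 3 genes were chosen by their signals on the WS and Col-0 arrays as neighbouring loci that vary between accessions. Their values in the contrasts of WS with Col-0 are therefore given as a description with no test. All 3 were found.

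Total RNA of whole 10-day-old seedlings, with roots, was labelled with biotin and hybridised to Affymetrix GeneChip arrays. WS seedlings after 24 h at 4 °C were measured on 2 arrays, Col-0 seedlings after 24 h at 4 °C on 5, and Col-0 seedlings moved to a fresh 22 °C chamber, as the mock treatment, on 2. All seedlings were labelled wild type (the WS ecotype tag reads WS2), had 3 days of stratification, and grew in constant light of 60 to 80 microE at 22 °C on 0.7% agar with Gamborg's medium lacking sucrose. Of the cold Col-0 arrays, 2 bore the name set 4. None of the 9 arrays was of WS at 22 °C, so no cold response of the genes in WS is given. WS at 4 °C and Col-0 at 22 °C differ in both accession and temperature, which cannot be told apart in that comparison.

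AT5G37990 and AT5G38020 belong to the SABATH methyltransferases, plant enzymes that move a methyl group from S-adenosylmethionine to small acids and related compounds. The family is named after enzymes for salicylic acid, benzoic acid and theobromine, and its Arabidopsis members include JMT, which makes methyl jasmonate, and BSMT1, which makes methyl salicylate and methyl benzoate. AT5G37980 belongs to the zinc-binding dehydrogenases that resemble the alkenal reductase AER, an enzyme that reduces the double bond of reactive aldehydes and ketones. The substrates of the 3 gene products are not given in the sources used here, and these family assignments are background, since the tables used here hold locus names only.

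The arrays carried the marks of the tissue and the treatment. The root gene PYK10 lay between 11.20 and 12.21 on all arrays and the root hair gene EXPA7 between 4.69 and 6.35, in log2 units of the robust multi-array average (RMA) signal, the scale of every signal below. The light harvesting gene LHCB4.2 lay between 9.34 and 12.93. COR15A, a chloroplast protein gene induced by cold, had 13.06 to 13.35 in WS at 4 °C, 13.35 to 13.53 in Col-0 at 4 °C, and 6.42 and 8.32 in Col-0 at 22 °C. Over the 7 measured markers of tissue and cold, log2 differences of WS from Col-0 at 4 °C ran from -0.94 to 0.19. Whether tissue make-up differed between the groups was not tested. Median signals of the arrays lay between 5.81 and 6.06. The dimmest 25% of probe sets ended between 3.77 and 3.93, and signals near or under that bound are called dim here because background was not assessed.

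AT5G38020 had the widest separation of the 3 genes. Its signal was 9.42 and 9.76 on the WS arrays, against 5.79, 5.50 and 5.05 on the cold Col-0 arrays with no set name and 5.99 and 5.77 on the set 4 arrays. The Col-0 arrays at 22 °C had 5.99 and 7.03. Both WS arrays stood above all 7 Col-0 arrays, with a gap of 2.38 between the lower WS array and the highest Col-0 array. The means were 9.59 ± 0.24 in WS at 4 °C (SD, n = 2), 5.62 ± 0.36 in Col-0 at 4 °C (n = 5) and 6.51 ± 0.74 in Col-0 at 22 °C (n = 2). WS exceeded cold Col-0 by 3.97 on the log2 scale (SE 0.31), which is 15.7-fold, and exceeded Col-0 at 22 °C by 3.08 (SE 0.36), which is 8.4-fold. In bulk seedlings, more cells that express a gene and more transcript per cell cannot be told apart.

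AT5G37990, the other methyltransferase gene, had a smaller difference in the same direction. Its signal was 8.15 and 7.60 on the WS arrays, against 6.42, 5.66 and 5.66 on the unnamed cold Col-0 arrays, and 6.33 and 5.71 on the set 4 arrays. At 22 °C the Col-0 arrays had 6.33 and 7.07. The WS arrays again lay above all Col-0 arrays, but the gap to the upper 22 °C array was only 0.53. The means were 7.88 ± 0.39 in WS at 4 °C (SD, n = 2), 5.96 ± 0.38 in Col-0 at 4 °C (n = 5) and 6.70 ± 0.52 in Col-0 at 22 °C (n = 2). WS was 3.8-fold above cold Col-0 (log2 1.92, SE 0.29) and 2.3-fold above Col-0 at 22 °C (log2 1.18, SE 0.35).

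AT5G37980, the reductase-like gene, had the smallest accession difference at 4 °C. Its signal was 6.33 and 5.95 on the WS arrays, against 4.88, 4.62 and 4.93 on the unnamed cold Col-0 arrays and 4.88 on both set 4 arrays. The 22 °C Col-0 arrays had 4.58 and 4.61. All 7 Col-0 arrays lay within a narrow band, and the lower WS array stood 1.03 above the highest of them. The means were 6.14 ± 0.27 in WS at 4 °C (SD, n = 2), 4.84 ± 0.12 in Col-0 at 4 °C (n = 5) and 4.59 ± 0.02 in Col-0 at 22 °C (n = 2). WS was 2.5-fold above cold Col-0 (log2 1.31, SE 0.13) and 2.9-fold above Col-0 at 22 °C (log2 1.55, SE 0.16).

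**Figure D1:**
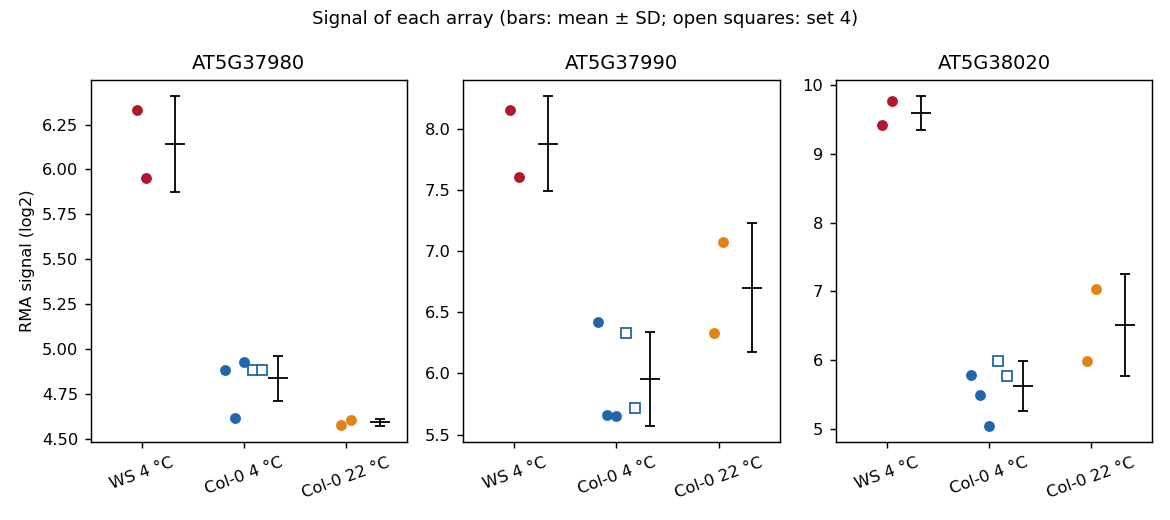
RMA signal (log2, vertical axes that differ between panels and do not start at 0) of AT5G37980, AT5G37990 and AT5G38020 on every array of WS at 4 °C, Col-0 at 4 °C and Col-0 at 22 °C, with set 4 arrays as open squares and the mean ± SD of each group beside its points. The 2 WS arrays lie above all 7 Col-0 arrays in each panel, by 1.03, 0.53 and 2.38 from the highest Col-0 array.

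Thus 3 of 3 genes had WS arrays above all Col-0 arrays, as did 8.1% of all 22746 probe sets tested. Called here means that limma gave an adjusted p below 0.05 with a log2 difference of 1 or more in size. All 3 were called higher in WS against cold Col-0, as were 0.857% of all probe sets. Against Col-0 at 22 °C, where accession and temperature both differ, all 3 were called higher too, beside 6.82% of all probe sets. The choice of the genes fixed these counts, so nothing is read from them. Among all probe sets, ordered from the highest WS difference down, AT5G38020 was at place 4, AT5G37990 at place 47 and AT5G37980 at place 170.

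The order of the group means was not the same in the 3 genes. In AT5G38020 and AT5G37990, Col-0 at 22 °C stood between WS at 4 °C and Col-0 at 4 °C. In AT5G37980, Col-0 at 4 °C stood between the other groups. The neighbours in these orders that are both Col-0 groups did not differ by a called amount in any of the 3 genes, as tested next.

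The comparison of Col-0 at 4 °C with Col-0 at 22 °C asks whether cold alters the genes within 1 accession. Both groups are among the arrays by which the genes were chosen, and the cold Col-0 arrays are shared with the accession contrast. The p-values of this comparison are therefore not independent of that choice. By limma 0 of 3 genes were called, beside 12.0% of all probe sets, and 2 of 3 had an unadjusted p under 0.05. The share of all probe sets at that unadjusted limit was not taken, so nothing is read from such counts here or below. AT5G38020 had a log2 difference of -0.89 (SE 0.31, 95% interval -1.58 to -0.21, limma adjusted p = 0.0561). AT5G37990 had -0.74 (SE 0.29, interval -1.40 to -0.09, limma adjusted p = 0.0903), and AT5G37980 had 0.24 (SE 0.13, interval -0.05 to 0.54, limma adjusted p = 0.222). The cold and 22 °C arrays overlapped in both methyltransferase genes and did not in AT5G37980, where they were 0.01 apart at the nearest, and 39.7% of all probe sets had no overlap.

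The cold differences of the methyltransferase genes turned on the 2 arrays at 22 °C. In AT5G38020 the second 22 °C array was 1.04 above the first, and in AT5G37990 it was 0.74 above, while in AT5G37980 it was 0.03 above. On the same arrays COR15A had 6.42 and 8.32. Without the first 22 °C array, AT5G38020 was called lower in the cold (log2 -1.41, limma adjusted p = 0.0171), and without the second it had -0.37. AT5G37990 had -1.11 and -0.37 without the first and the second 22 °C array, and was not called in either case. AT5G38020 was also called lower with the set 4 arrays left out (log2 -1.07, limma adjusted p = 0.0458).

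Among the 5 cold Col-0 arrays, AT5G38020 spanned 0.94, AT5G37990 spanned 0.77 and AT5G37980 spanned 0.31. Set 4 differed from the other cold Col-0 arrays by 0.44 in AT5G38020 (SE 0.31, limma adjusted p = 0.661), by 0.11 in AT5G37990 (SE 0.33, adjusted p = 0.944) and by 0.07 in AT5G37980 (SE 0.15, adjusted p = 0.907). None of these was called, beside 0.0044% of all probe sets. Since both WS arrays lay above all Col-0 arrays, the WS difference had to have the same direction within each set. It was 13.1-fold against set 4 and 17.7-fold against the other cold arrays in AT5G38020, 3.6-fold and 3.9-fold in AT5G37990, and 2.4-fold and 2.5-fold in AT5G37980. The second WS array was lower than the first in AT5G37980 and AT5G37990 and higher in AT5G38020.

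Some of the deposited signals were exactly equal between arrays. AT5G37980 had 1 value on 3 cold Col-0 arrays, and AT5G37990 and AT5G38020 each had 1 value on the first 22 °C array and the first set 4 array. Such equal values occurred in 36.0% of all probe sets. Where they fall within a group, as in AT5G37980, the standard deviation of that group may understate the spread.

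The neighbourhood was taken as the 7 loci from AT5G37980 to AT5G38020 and 15 loci on either side in the RefSeq gene order, 37 in all. Besides the 3 genes, 16 of these loci had a probe set of their own, 4 were read only through probe sets shared by 2 loci, and 14 had none listed. Of the 16, limma called 0 in either direction between WS and cold Col-0, 1 had an unadjusted p under 0.05, and 2.14% of all probe sets were called. Their differences ran from -0.22 to 0.65 with a median of 0.09, beside a median of 0.01 over all probe sets. Of these 16 loci, 9 stayed under a signal of 4 on every array, where dim signal leaves a difference hard to see.

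The locus just before the cluster, AT5G37970, is a further SABATH gene, and it was dim throughout. It had 3.32 and 3.07 on the WS arrays, 2.99 to 3.07 on the cold Col-0 arrays, and 2.85 and 3.11 at 22 °C. AT5G37960, the next locus out, had 3.03 on both WS arrays, 2.94 to 3.22 in cold Col-0, and 3.34 and 3.05 at 22 °C. Neither gene was called in either contrast.

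The locus just after the cluster, AT5G38030, encodes a MATE-type efflux carrier, a family that exports small molecules from the cytosol. It had 7.16 and 7.06 in WS, 6.19 to 6.72 in cold Col-0, and 6.18 and 6.99 in Col-0 at 22 °C. It was the 1 locus of the 16 with WS arrays above all Col-0 arrays, near the share of 8.1% of all probe sets, so nothing is read from that count. Its difference of 0.65 from cold Col-0 (SE 0.21, limma adjusted p = 0.131) was not called. Farther out, the glycosyltransferase gene AT5G38040 had a difference of 0.04 and the histone chaperone gene ASF1B a difference of 0.09, neither called.

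Among the neighbouring probe sets, 2 are listed for a pair of loci each, and their signal cannot be assigned to either locus of the pair. The pair AT5G38010 and AT5G37950 has AT5G38010 inside the cluster and AT5G37950 outside it, and AT5G38010 encodes a glycosyltransferase. Their common probe set had 5.77 and 6.0 in WS, 3.79 to 4.12 in cold Col-0, and 3.76 and 4.12 in Col-0 at 22 °C. It was called higher in WS, 3.7-fold above cold Col-0 (log2 1.89, SE 0.14, limma adjusted p = 7.81e-05), beside 0.857% of all probe sets. The pair AT5G38000 and AT5G37940, both reductase-like like AT5G37980, had 4.34 and 4.39 in WS, 3.58 to 3.93 in cold Col-0, and 3.82 and 4.23 at 22 °C. Both WS arrays lay above all Col-0 arrays there, but the difference of 0.60 (SE 0.14, limma adjusted p = 0.0452) was under the minimum for a call.

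**Figure D2:**
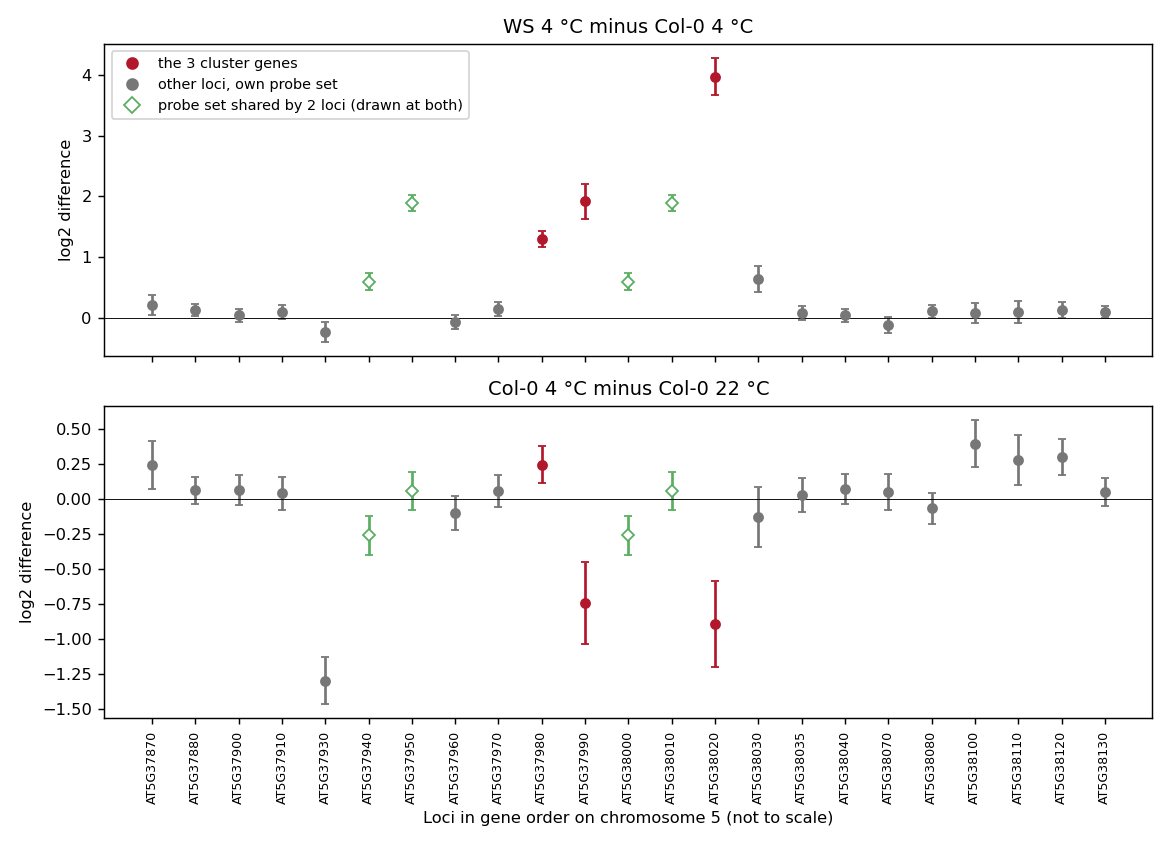
Log2 difference ± SE (limma) between WS and Col-0 in the cold (WS minus Col-0, upper panel) and between cold and 22 °C Col-0 (cold minus 22 °C, lower panel) for the measured loci around the cluster, in gene order on chromosome 5 and not to scale. In the upper panel the 3 cluster genes (1.31, 1.92 and 3.97) and the probe set shared by AT5G38010 and AT5G37950 (1.89) stand above loci that lie between -0.22 and 0.65, and in the lower panel AT5G37930 is lowest (-1.30).

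With cold in Col-0, 1 of the 16 neighbours was called, and it was lower, as were 6.09% of all probe sets. AT5G37930, which encodes a seven-in-absentia-type ubiquitin ligase, fell to 5.51 ± 0.18 in Col-0 at 4 °C (SD, n = 5), against 6.81 ± 0.19 in Col-0 at 22 °C (n = 2). The difference was -1.30 (SE 0.17, limma adjusted p = 0.0004), with no overlap between the groups. Its WS arrays had 5.51 and 5.07, not called against cold Col-0 (log2 -0.22, limma adjusted p = 0.531). The median cold difference of the 16 neighbours was 0.05, beside 0.03 over all probe sets.

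The SABATH list held 24 genes, of which 14 besides AT5G37990 and AT5G38020 had a probe set of their own. In WS against cold Col-0, 0 of the 14 were called higher and 1 was called lower, beside 0.857% and 1.28% of all probe sets. The 0 called higher is near its share and is no result about the family. An unadjusted p under 0.05 was found in 3. Their median difference was 0.06, beside 0.01 over all probe sets, and 8 stayed under a signal of 4 on every array. The exception was AT3G21950, at 4.40 and 4.13 in WS, against 6.14 to 6.54 in cold Col-0 and 7.07 and 6.76 in Col-0 at 22 °C. It was called 4.2-fold lower in WS (log2 -2.06 against cold Col-0, SE 0.14, limma adjusted p = 6.04e-05), beside 1.28% of all probe sets, the opposite direction from the cluster genes. NAMT1, at the upper end of the 14 and dim on every array, had a difference of 0.40 (limma adjusted p = 0.107). JMT had a difference of 0.26 (SE 0.58) and BSMT1, which was dim, had 0.21 (SE 0.14), neither called.

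A probe set shared by PXMT1 (AT1G66700), a methyltransferase gene for paraxanthine, and its neighbour AT1G66690 on chromosome 1 had a larger difference than any of the 3 genes. It had 8.50 and 9.72 in WS, 4.27 to 5.20 in cold Col-0, and 3.67 and 3.70 in Col-0 at 22 °C. It was called 21.3-fold higher in WS (log2 4.42 against cold Col-0, SE 0.31, limma adjusted p = 7.19e-05), and stood at log2 3.81 and 5.02 without the second or the first WS array. In Col-0 it was called higher at 4 °C by 1.01 (SE 0.31, limma adjusted p = 0.0381), as were 5.87% of all probe sets, a call that ended without the first (adjusted p = 0.169) or the second (0.141) 22 °C array, and without any cold Col-0 array but the second (0.0535 to 0.0723). Of the 14 SABATH genes with their own probe set, 0 were called in the cold by limma, beside 12.0% of all probe sets, 3 had an unadjusted p under 0.05, and the median difference was -0.01. AT3G21950 had -0.59 (limma adjusted p = 0.0126), short of the minimum size.

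The list of reductase-like genes held 13 loci, of which 9 besides AT5G37980 had a probe set of their own. In WS against cold Col-0, 1 of the 9 was called higher and 0 lower, beside 0.857% and 1.28% of all probe sets, with a median of 0.20. AT5G16990 rose to 9.70 and 9.26 in WS, against 7.56 to 8.12 in cold Col-0 and 7.92 and 7.54 in Col-0 at 22 °C. It was 3.0-fold above cold Col-0 (log2 1.58, SE 0.18, limma adjusted p = 0.00154), and its WS arrays did not overlap with any Col-0 array. AER had 7.39 and 7.61 in WS, 6.59 to 7.31 in cold Col-0, and 6.18 and 6.69 at 22 °C, a difference of 0.56 from cold Col-0 that was not called (SE 0.21, limma adjusted p = 0.171). At the other end AT5G16980 had -0.78 (SE 0.30, limma adjusted p = 0.193). In the cold, 0 of the 9 were called by limma, beside 12.0% of all probe sets, 3 had an unadjusted p under 0.05, and AT5G16980 and AT1G65560 had differences of 0.97 and 0.85 with adjusted p-values of 0.0382 and 0.0119, both short of the minimum size. The lowest cold difference of the 9 was that of AT5G37960 (-0.10, limma adjusted p = 0.625).

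**Figure D3:**
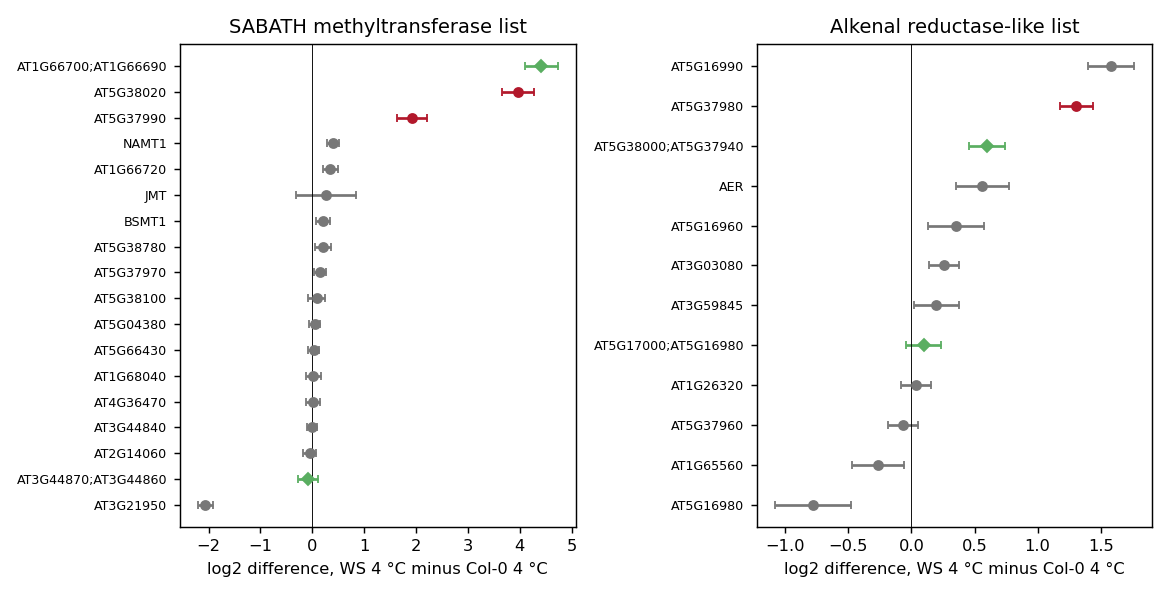
Log2 difference ± SE (limma) between WS and Col-0 in the cold (WS minus Col-0) for the SABATH methyltransferase list (left) and the reductase-like list (right), with the 3 cluster genes in red, other genes in grey and probe sets shared by 2 loci as green diamonds. On the left AT5G38020 (3.97), AT5G37990 (1.92) and the probe set of AT1G66700 and AT1G66690 (4.42) lie to the right of the other genes and AT3G21950 (-2.06) to the left. On the right AT5G16990 (1.58) lies above AT5G37980 (1.31).

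Glycosyltransferases of the UGT76E type, the family of AT5G38010, had 0 of 10 genes with their own probe set called by limma in either contrast, beside 12.0% of all probe sets in the cold and 2.14% between WS and cold Col-0, so that 0 of 10 is near these shares and is no result about the family. At an unadjusted p under 0.05 there was 1 in the cold and 1 between the accessions. UGT76E11 had the highest cold difference of these (0.63, limma adjusted p = 0.0189), and AT3G46720 the lowest difference between WS and cold Col-0 (-0.46, limma adjusted p = 0.198). AT3G46680 had both the lowest cold difference (-0.16) and the highest difference between the accessions (0.24). Of 14 genes for salicylate and jasmonate synthesis, response and ester cleavage, 1 had a probe set of its own in the annotation used. That annotation named no gene for 8730 probe sets, so the rest of these genes are unlisted and not shown to be unmeasured. The 1 listed gene, UGT74F1, which attaches glucose to salicylate, had -0.07 in WS against cold Col-0 and 0.42 in the cold, not called in either.

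The likeness of other genes was measured as the root mean square difference from a member's log2 signals over the 9 arrays, after each gene was centred on its own mean, among 13512 single-gene probe sets. Nearest to AT5G38020 were AT3G26460 (0.45), AT5G15360 (0.55), AT3G28320 (0.64), AT4G19240 (0.67) and AT1G50290 (0.71). Nearest to AT5G37990 were AT4G14060 (0.25), AT2G41480 (0.32), STR18 (0.33), AT5G15180 (0.37) and AT2G35380 (0.40). Nearest to AT5G37980 were AT4G31570 (0.15), AT1G63540 (0.16), AT2G15340 (0.18), AT3G14430 (0.18) and AT1G53540 (0.18).

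The 3 genes were not each other's nearest. AT5G37990 was at place 16 from AT5G38020 with a difference of 0.89, and AT5G37980 was at place 58 with 1.14. From AT5G37990, AT5G37980 was at place 30 with 0.51 and AT5G38020 at place 7707 of 13512. From AT5G37980, AT5G37990 was at place 1749 and AT5G38020 at place 13108, so by this measure the cluster genes were not close in that direction. The measure takes in size as well as shape, so genes with unequal accession differences lie apart by it. AT3G26460, the gene nearest to AT5G38020, had means of 6.47 in WS at 4 °C, 3.46 in Col-0 at 4 °C and 4.15 in Col-0 at 22 °C, and AT4G14060, nearest to AT5G37990, had 6.51, 4.76 and 5.53 in the same groups. Their cold differences in Col-0 were -0.69 and -0.76, while AT5G15360 had 0.06, AT3G28320 -0.16, AT4G19240 0.15 and AT1G50290 0.01. Several of the nearest genes were dim or nearly so on the cold Col-0 arrays, such as AT3G26460 (3.19 to 3.70) and AT5G15360 (3.72 to 4.11). The same held for AT4G31570 (3.15 to 3.24) and AT1G63540 (3.30 to 3.92), and dim signal limits how far such likeness can be read. The choice by signals on the same arrays partly fixes these values, so nothing is read from them.

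**Figure D4:**
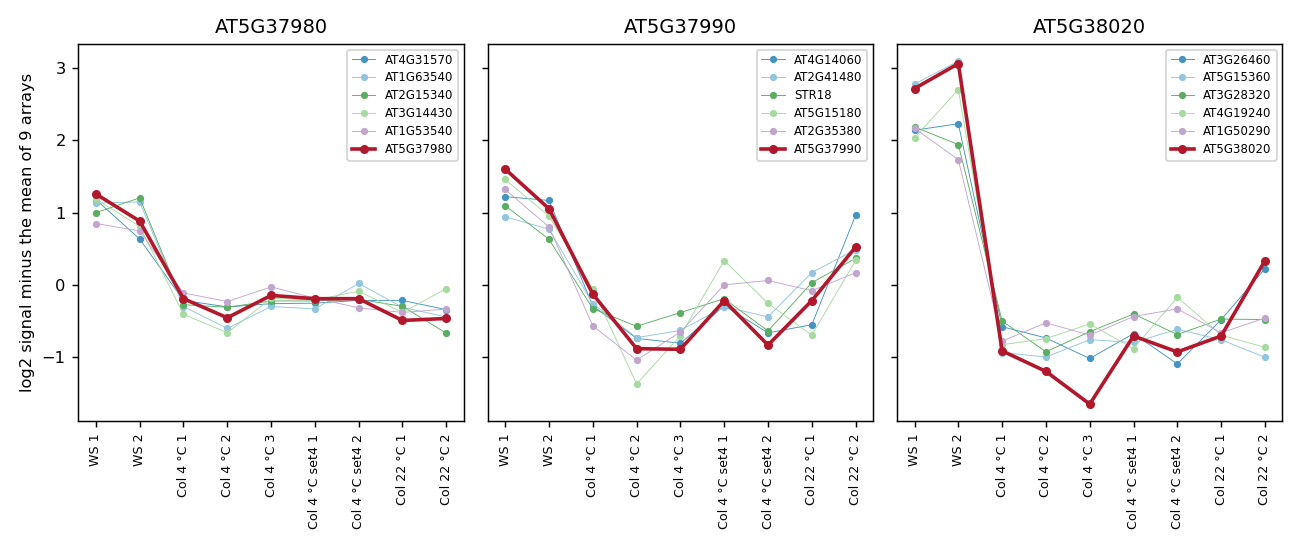
Log2 signal of each array minus the gene's mean over the 9 arrays, for each cluster gene (thick red) and the 5 genes with the nearest profile (thin), with the WS arrays left of the cold Col-0 and the 22 °C Col-0 arrays; lines join the points of 1 gene and imply no order of arrays. All genes shown are high on both WS arrays, and AT5G38020 and AT3G26460 also stand higher on the second 22 °C array than on the first.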

How the data were processed

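The authors made the deposited values, log2 signals of each probe set, by RMA in the R package affy, per the submitters' processing notes. Versions, genome build and detection calls are not given in the sources used here, and precision is limited by how few arrays there were. The table held 22810 probe sets, of which 64 controls were dropped and 22746 tested. The platform annotation, matched to RefSeq (TAIR10.1), named 1 gene for 13513 probe sets, several for 503 and none for 8730. The probe set with the highest mean stood for a gene with several.

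Group means were fitted to all 9 arrays with limma 3.58.1 in R 4.3.3 (lmFit, eBayes, 6 residual degrees of freedom). P-values were adjusted over every tested probe set by the Benjamini-Hochberg method. The pipeline was tested on simulated data. SE and intervals pool the spread over groups. Separate cultures are not stated for the arrays of a group, so p-values cover only the spread between these samples, which may be technical. The genes and lists were chosen with earlier results of these data known. Named genes were the 3 cluster genes, the nearest and the called neighbours, called and extreme members of each list, and the 5 nearest profiles of each cluster gene. Probe sets shared by loci, AER, ASF1B, JMT, BSMT1 and AT1G65560 were added after values were seen. Alternatives left out each array or set 4, added set 4 or the title number as a term, fitted 2 groups alone, centred or quantile normalised the arrays, dropped the dimmest 25% of probe sets or changed the eBayes prior. Protein, promoter and probe sequences were not used here. Whether the probes match WS and Col-0 sequence equally was therefore not tested, and all differences given are in probe set signal.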

Additional observations from a re-analysis of the deposited data

Results flagged for a closer look

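Among the 5 cold Col-0 arrays, 1 array stood apart from the other 4 by Dixon's criterion in 6 of 54 probe sets of the cluster, its neighbours and the gene families. Chance gives about 1 in 20 for values without ties. Equal values, as in AT5G37980, can alter that rate, so nothing is read from the count. AT5G37980 was the only cluster gene among the 6, with 4.62 on the second unnamed array, against 4.88 to 4.93 on the other 4. The same array had 2.98 for the SABATH gene NAMT1 (AT5G04370), against 3.14 to 3.19. The probe set shared by AT5G17000 and AT5G16980 had 4.07 on the third unnamed array. On the first set 4 array, AT3G46720 had 4.71. On the second set 4 array, AT5G37870 had 4.00 and ASF1B (AT5G38110) had 7.86.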

How the results depend on the processing

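Under all 17 alternatives the 3 cluster genes had a higher signal in WS against cold Col-0, a direction that their choice had fixed, so nothing is read from it. The log2 differences were 3.80 to 4.14 in AT5G38020, 1.64 to 2.19 in AT5G37990 and 1.12 to 1.49 in AT5G37980, the last range set by leaving out 1 WS array. Against Col-0 at 22 °C, AT5G38020 had 5.9-fold to 12.1-fold with 1 array at 22 °C left out. The cold difference of AT5G38020 ran from -1.41 to -0.37 with 1 array left out, was called only without the first 22 °C array, with set 4 left out or with set 4 as a term (both -1.07), and the cause was not tested. The probe sets called between WS and cold Col-0 numbered 486, and 285 to 549 with 1 array left out, the lowest without the second WS array. With the title number as a replicate block, AT5G38020 had 3.83 against cold Col-0 and -0.75 in the cold. That block changed no call of a cluster gene. Same-numbered arrays correlated at -0.33 to 0.29 in their deviations from group means, so the numbers were not taken to pair the arrays. The cold call of the PXMT1 probe set also ended with set 4 left out or as a term, with renormalised arrays and with the block, at log2 0.89 to 1.01. Dim signal limits what can be seen in the neighbours, and no limit of detection was set.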

Other observations

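JMT varied within groups more than the cluster genes did. It had 6.58 and 5.49 in WS at 4 °C, 4.67 to 6.66 in Col-0 at 4 °C, and 5.50 and 3.99 in Col-0 at 22 °C. Its cold difference of 1.03 in Col-0 (SE 0.58, limma adjusted p = 0.239) was not called. The set 4 arrays had 4.67 and 5.27, below 5.92, 6.36 and 6.66 on the other cold Col-0 arrays. That difference of -1.34 (SE 0.47, limma adjusted p = 0.404) was not called, and its cause was not tested. The JMT cold difference was 0.23 with set 4 alone and 1.57 with the other cold arrays. WS minus cold Col-0 was 1.06 against set 4 and -0.28 against the other cold arrays. AT5G16980, a reductase-like gene, had 3.74 and 3.94 in WS at 4 °C, 4.10 to 5.45 in Col-0 at 4 °C, and 3.67 and 3.62 in Col-0 at 22 °C. By this probe set, its WS arrays lay below every cold Col-0 array, where AT5G37980 had its WS arrays above them. The AT5G16980 signals in WS and at 22 °C were dim. A further probe set, shared by AT5G16980 and AT5G17000, had 4.07 on the third unnamed cold array. It had 3.59 to 3.67 on the other cold Col-0 arrays, below the level of the first probe set.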
